A study of Mus musculus with 24 samples.

Results

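The TRAV7 family comprises the V segments of the mouse T-cell receptor alpha (TCRα) locus whose names begin with TRAV7, TRAV7D or TRAV7N. Its clonotypes were taken from the TCRα tables of 24 tumors as every sequence assigned to one of these segments that carried no stop mark and had at least 2 counts. This left 12396 of 55689 retained sequences and 6914 of 35452 clonotypes, a clonotype being a CDR3 amino acid sequence with its V and J segment. In all, 13 of the family's 14 segments in the RefSeq annotation of GRCm38.p6 were found. The annotation places them on chromosome 14, with TRAV7-1 at the 5′ end, the TRAV7D and then the TRAV7N copies next, and TRAV7-2 to TRAV7-6 at the 3′ end. The tables name no genome build, so no coordinates are given.

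The tumors were grown subcutaneously in both flanks of female BALB/c mice, aged 7 to 9 weeks when obtained, from CT26.CL25, a colon carcinoma line derived from CT26 that carries a beta-galactosidase transgene. There were 12 mice in 4 groups of 3, each with 2 tumors. Time-matched mice (6, 12 and 14) were untreated and had both tumors harvested 13 days after inoculation. Time-separated mice (4, 17 and 19) were untreated and had the second tumor harvested 11 days after surgical removal of the first. Mice 3, 11 and 20 received decitabine (DAC), an inhibitor of DNA methylation, at 0.5 mg/kg and mice 7, 10 and 16 at 2 mg/kg, by intraperitoneal injection on 5 consecutive days from 3 days after surgery, with harvest 4 days after the last dose. Where 9 time-separated mice are named below, they are the untreated time-separated mice together with the DAC mice of both doses. The labels give the dose for both tumors of a DAC mouse, although the first was removed before treatment. They number the tumors 1 and 2 without giving which was harvested first, and no time order was assigned. RNA came from the whole tumor, so that more T cells of a kind and more receptor RNA per cell cannot be told apart.

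An alpha chain is made by joining one V segment to one J segment, with loss or addition of bases at the junction, and the CDR3 spans this junction. J segments are numbered from the V-distal end, so that the highest numbers lie nearest the V segments. Successive rounds of joining on the same chromosome replace a V-J join with one that uses a V segment further upstream and a J segment further downstream. V segments of the alpha locus of the mouse have been copied in blocks, and the D and N copies of a TRAV7 segment closely resemble the original. A CDR3 found with the same amino acids in many individuals is called public.

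The sequences that carried most of what follows are given here as CDR3 nucleotides, 5′ to 3′, copied from the deposited tables. The first set is the commonest public group, TRAV7-2 joined to TRAJ40, with capitals on codons 4 and 5, the codons in which the sequences differ:
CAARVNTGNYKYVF: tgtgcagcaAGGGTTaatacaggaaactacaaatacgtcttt
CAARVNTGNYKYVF, second sequence: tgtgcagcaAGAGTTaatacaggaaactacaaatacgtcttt
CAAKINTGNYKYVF: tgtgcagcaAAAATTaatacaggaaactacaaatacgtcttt
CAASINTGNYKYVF: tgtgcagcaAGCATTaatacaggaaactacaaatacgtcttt
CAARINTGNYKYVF: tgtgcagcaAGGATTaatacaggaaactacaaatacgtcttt
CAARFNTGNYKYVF: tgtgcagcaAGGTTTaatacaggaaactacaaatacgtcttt

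The second set encodes 1 CDR3, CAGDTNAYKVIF with TRAJ30, by different codons at position 3, shown in capitals:
TRAV7-1, mouse 12: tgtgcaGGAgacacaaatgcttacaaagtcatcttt
TRAV7-3, mice 14 and 19: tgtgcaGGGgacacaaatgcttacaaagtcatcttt
TRAV7-3, mouse 17: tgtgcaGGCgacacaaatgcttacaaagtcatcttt

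The third set holds expanded TRAV7-4 clones of 15 residues, with capitals on codons 4 and 5:
TRAJ15, mouse 12: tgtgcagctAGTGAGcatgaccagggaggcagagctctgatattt
TRAJ12, mice 3 and 20: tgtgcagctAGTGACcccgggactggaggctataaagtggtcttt

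TRAV7 was the most abundant of the 21 TRAV families. It held 25.2% ± 13.6 (SD, n = 12 mice) of all retained TCRα counts, against 10.7% ± 8.42 for TRAV3, 10.4% ± 10.53 for TRAV9 and 9.89% ± 6.19 for TRAV6, the families next in order. The ranges of mice overlapped, from 7.54% to 53.8% for TRAV7 and from 0.948% to 31.9% for TRAV3. TRAV7 was the largest family in 8 of 12 mice and in 13 of 24 tumors. By number of clonotypes it also came first, with 21.2% ± 5.91 against 11.6% ± 3.00 for TRAV6 (n = 12 mice, all retained counts). The libraries held between 26623 and 846655 retained counts, of which between 7410 and 477685 were TRAV7, and between 134 and 1132 TRAV7 clonotypes. Non-functional sequences, marked in the tables by a stop codon, were counted by CDR3 nucleotides and functional clonotypes by CDR3 amino acids. TRAV7 made up 20.5% ± 4.99 of the non-functional sequences and 20.7% ± 5.13 of the functional clonotypes (12 mice), a difference of -0.20 percentage points (two-sided exact sign-flip test, p = 0.822). It was -1.80 points with a minimum of 1 count (exact sign-flip p = 0.0894), and its sign was opposite with a minimum of 5 counts (1.04 points) and without mouse 3 (0.219 points) or mouse 14 (0.201 points).

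The share of counts varied widely between mice, while the tumors of a mouse were often close. Among time-matched mice, tumors 1 and 2 of mouse 6 gave 19.4% and 17.8%, those of mouse 12 gave 51.1% and 56.4%, and those of mouse 14 gave 36.5% and 39.96%. Among untreated time-separated mice, mouse 4 gave 31.5% and 10.1%, mouse 17 gave 16.8% and 13.6%, and mouse 19 gave 20.8% and 9.38%. Tumor 1 was thus the higher in each of these 3 time-separated mice, and both tumors of mouse 12 lay above all others. At 0.5 mg/kg DAC, mouse 3 gave 28.4% and 26.1%, mouse 11 gave 38.8% and 22.8%, and mouse 20 gave 17.8% and 31.6%. At 2 mg/kg DAC, mouse 7 gave 41.0% and 39.5%, mouse 10 gave 10.4% and 4.64%, and mouse 16 gave 8.75% and 12.4%. Mouse 7 stood well above the others of its dose, and tumor 2 of mouse 10 had the lowest share of all 24 tumors.

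**Figure D1:**
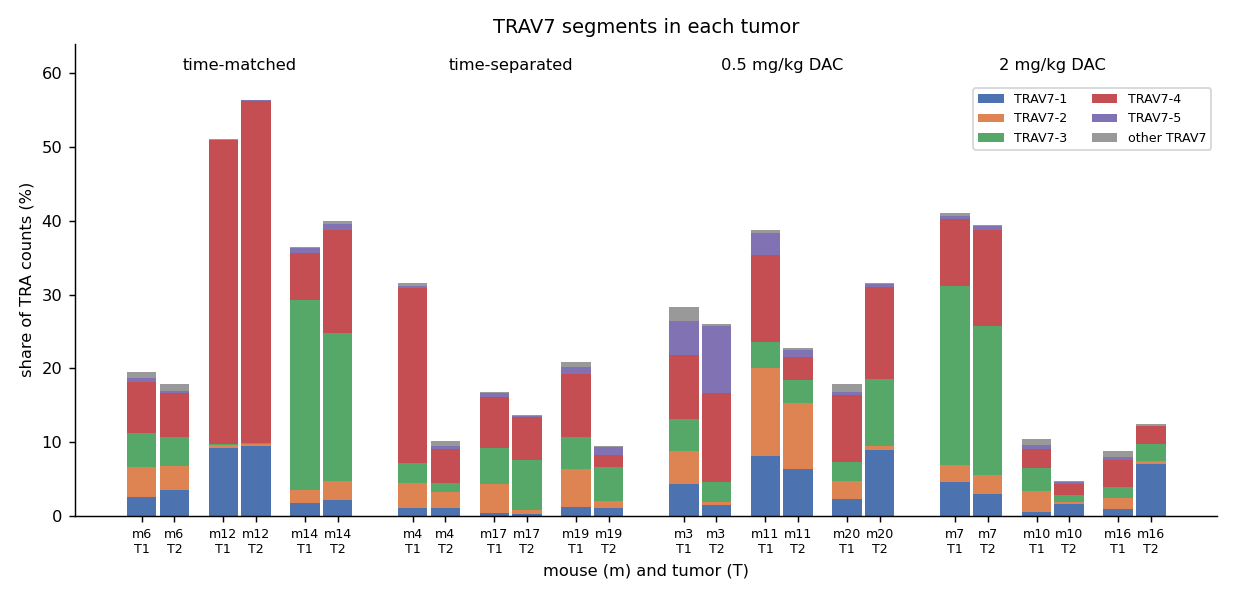
Share of TCRα counts (%) held by each TRAV7 segment in tumors 1 and 2 (T) of each mouse (m), with the segments stacked and the groups side by side. Bars reach from 4.64% (mouse 10, tumor 2) to 56.4% (mouse 12, tumor 2), and the segment that makes up most of the bar differs between mice.

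Almost all of the family lay in 5 segments. TRAV7-4 held 57.5% of TRAV7 counts, TRAV7-3 18.2%, TRAV7-1 14.4%, TRAV7-2 6.85% and TRAV7-5 1.98%. The other 8 segments held between 0.000129% and 0.588% each and 1.12% together, TRAV7D and TRAV7N copies making up 1.12% of the family. TRAV7N-6 was not found. The large TRAV7-4 total rested in part on mouse 12, since by the mean of mice TRAV7-4 held 10.9% ± 11.0 of TCRα counts, TRAV7-3 6.55% ± 7.69, TRAV7-1 3.42% ± 2.75, TRAV7-2 2.78% ± 2.58 and TRAV7-5 1.11% ± 1.87 (n = 12). These spreads overlapped between neighbours in the order. TRAV7-4 was the largest TRAV7 segment in 13 tumors, TRAV7-3 in 7, TRAV7-1 in 2 and TRAV7-2 in 2. By clonotypes the order was TRAV7-4 (3059), TRAV7-3 (1478), TRAV7-2 (968), TRAV7-1 (622) and TRAV7-5 (394). The assignment to near-identical copies is uncertain for some sequences. Of 11891 CDR3 sequences of a tumor, 231 (1.94%) were listed under more than 1 TRAV7 segment and held 33.5% of the family's counts, although the smaller assignments held only 0.217%.

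The first residues of the CDR3, at its V end, differed between the segments. Codon 3 also varied within a segment, as in the TRAV7-3 sequences above. Bases of the V segment and bases added at the junction were not told apart. Of TRAV7-2 clonotypes 81.9% began with CAA and of TRAV7-4 clonotypes 87.1%, whereas CAV was the commonest start of TRAV7-1 (42.2%) and TRAV7-3 (62.8%) and CAM that of TRAV7-5 (73.6%). CDR3s were 12.6 ± 0.556 residues long with TRAV7-1 and 14.0 ± 0.347 with TRAV7-4 (mean ± SD of 12 mice), with the other 3 main segments in between. Over the whole family the mean length was 13.5 ± 0.253 residues against 13.7 ± 0.110 for other TCRα clonotypes. The difference of -0.13 residues did not pass the test (exact sign-flip permutation test over 12 mice, p = 0.151, adjusted p = 0.377 over 5 such comparisons). It was past the threshold without mouse 12 (-0.19, exact p = 0.0361) and with near-identical sequences joined (-0.11, exact p = 0.0264).

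TRAV7 clonotypes used J segments further from the V segments than other TCRα clonotypes did. The mean TRAJ number was 30.7 ± 2.21 for TRAV7 and 34.2 ± 1.82 for the others. The difference of -3.53 was negative in every one of the 12 mice (two-sided exact sign-flip test, p = 0.000488, the smallest p that 12 mice allow, adjusted p = 0.00244 over 5 comparisons). When clonotypes were weighed by their counts the difference was -2.26 (exact sign-flip p = 0.188). J segments from TRAJ53 to TRAJ58, the V-proximal end, made up 2.69% ± 0.903 of TRAV7 clonotypes (1.04% to 4.64% in single mice) and 12.9% ± 2.96 of the others (7.59% to 18.0%), so that the ranges did not overlap. Of the main segments TRAV7-3 had the lowest mean TRAJ number (27.4 ± 2.12) and TRAV7-5 the highest (34.4 ± 4.71).

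Of 40 TRAJ segments tested, 15 differed between TRAV7 and other clonotypes (37.5% of those tested), 3 higher (7.5%) and 12 lower (30%) in TRAV7 (exact sign-flip permutation test per TRAJ over 12 mice, Benjamini-Hochberg adjusted p under 0.05). TRAJ30 made up 11.8% ± 7.10 of TRAV7 clonotypes against 4.84% ± 3.32 of the others and was higher in 12 of 12 mice (adjusted p = 0.00326). TRAJ40 made up 10.9% ± 4.72 against 4.68% ± 1.69, likewise in 12 of 12 mice (adjusted p = 0.00326). TRAJ22 made up 5.82% ± 3.21 against 2.91% ± 0.955 and was higher in 11 of 12 mice (adjusted p = 0.0223). TRAJ49 (7.87% ± 5.42 against 5.30% ± 1.53) and TRAJ15 (5.78% ± 9.94 against 3.48% ± 3.06), also among the 5 commonest partners, did not pass. The 37.0% of TRAJ15 in 1 mouse came from mouse 12, whose largest clone uses it.

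The lower group held the V-proximal TRAJ53, TRAJ56, TRAJ57 and TRAJ58, each lower in TRAV7 in 12 of 12 mice (adjusted p = 0.00326). TRAJ53 made up 4.73% of other and 0.924% of TRAV7 clonotypes, TRAJ57 3.73% and 0.686%, TRAJ56 2.75% and 0.932% and TRAJ58 1.66% and 0.144%. TRAJ48 (3.25% against 1.36%), TRAJ50 (3.34% against 1.74%), TRAJ52 (2.67% against 1.47%) and TRAJ45 (2.77% against 1.51%) were lower too. TRAJ34 (3.27% against 1.40%), TRAJ32 (3.28% against 1.62%), TRAJ38 (1.09% against 0.287%) and TRAJ5 (0.791% against 0.348%) completed the list. Many clonotypes in these tables lie 1 base from a sequence at least 20-fold larger in the same tumor. Joining these to the larger one removed 25521 of 55689 sequences, 45.8%, and left 52.2% of the TRAV7 and 63.7% of the other clonotypes. After this step 12 TRAJ segments were called, 11 of them among the 15 above. TRAJ30 was then 6.89% against 3.76%, TRAJ40 8.46% against 4.29% and TRAJ22 4.76% against 3.11%, while TRAJ32, TRAJ34, TRAJ38 and TRAJ5 were not called and TRAJ44 was. The mean TRAJ number differed by -4.03 (exact sign-flip p = 0.000488).

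**Figure D2:**
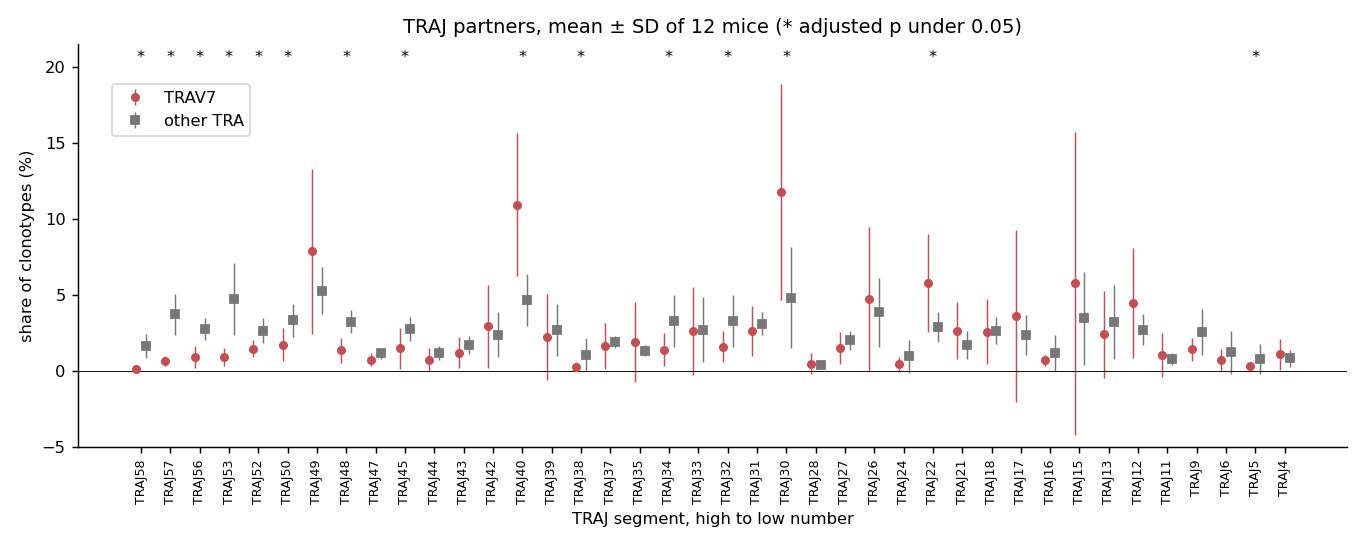
Share of clonotypes (%) that use each TRAJ segment among TRAV7 (circles) and other TCRα clonotypes (squares), mean ± SD of 12 mice, ordered from high to low TRAJ number, with stars for adjusted p under 0.05. TRAJ30 (11.8%) and TRAJ40 (10.9%) stand out among TRAV7, and TRAJ53 to TRAJ58 at the left lie lower in TRAV7 than in the others.

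The partners differed from segment to segment, which is given as a description. TRAJ30 made up 54.0% ± 28.9 of TRAV7-1 clonotypes and TRAJ40 made up 42.6% ± 9.499 of TRAV7-2 clonotypes (27.2% to 54.8% in single mice). TRAV7-3 was joined to TRAJ30 in 17.8% ± 20.9 and to TRAJ22 in 16.7% ± 12.7. TRAV7-4 was joined most often to TRAJ49 (15.3% ± 12.1), and TRAV7-5 to TRAJ52 (11.4% ± 11.3). The TRAJ40 share of TRAV7-2 had the smallest spread between mice relative to its mean. With near-identical sequences joined it was 25.5% ± 5.07, and that of TRAJ30 with TRAV7-1 29.5% ± 18.6. Of TRAV7-2 sequences with a stop mark, 485 of 884 (54.9%) used TRAJ40, against 725 of 1591 (45.6%) of functional nucleotide sequences. Near-identical sequences were not joined in these counts, and stop-marked sequences of other V segments were not compared. Seen from TRAJ40, 27.0% ± 11.7 of its clonotypes carried TRAV7-2.

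Many TRAV7-2 and TRAJ40 joins had one form of CDR3. The 6 TRAV7 clonotypes named as found in most mice all had it: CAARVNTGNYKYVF, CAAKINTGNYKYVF, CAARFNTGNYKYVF, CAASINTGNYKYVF and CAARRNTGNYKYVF were present in 12 of 12 mice and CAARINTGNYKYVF in 11. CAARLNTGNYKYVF, of the same form, was also found in 11 mice, and the tie was settled by the summed share of counts. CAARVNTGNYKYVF was encoded by 12 nucleotide sequences (6 after joining), and the first one shown above was present in all 12 mice. It made up between 0.0110% and 0.427% of counts per mouse. For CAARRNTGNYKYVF the 12 mice had 9 different commonest nucleotide sequences, each the commonest in at most 2 mice. With near-identical sequences joined these 6 were found in 12, 12, 11, 12, 10 and 11 mice in the order named. Of the 12 TRAV7 clonotypes found in 10 or more mice, 9 were of this form, and the other 3 used TRAJ30 (2) or TRAJ12 (1).

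All 14-residue CDR3s of the form CAA, any 2 residues, NTGNYKYVF were then gathered for TRAV7-2 with TRAJ40, a set chosen after its recurrence had been seen and therefore given without a test. It held 47 CDR3s (33 after joining), 156 nucleotide sequences (84 after joining) and 47522 counts, 44.8% of all TRAV7-2 counts. Per mouse it made up 16.3% of TRAV7-2 clonotypes (10.9% to 23.7%). Residue 4 was R in 54.3% of these counts, K in 21.2% and S in 15.1%. Residue 5 was I in 34.98%, V in 26.8%, L in 19.1% and F in 13.2%. Outside the 2 variable codons the sequences were nearly uniform, with the last 27 bases, aatacaggaaactacaaatacgtcttt, in 99.9% of counts and the first 9 bases, tgtgcagca, in 91.9%. Of all counts with this CDR3 form and TRAJ40, 90.2% carried TRAV7-2, 370 counts carried TRAV7-4 and 556 the TRAV7D-2 copy. Outside the family 3965 counts (7.53%) carried one of 11 other V segments, most often TRAV14-3 (1182) and TRAV5-4 (1052).

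The set was present in all 24 tumors, at 0.122% to 3.01% of TCRα counts (median 1.30%) and with 5 to 23 CDR3s per tumor. In a tumor its largest CDR3 held 16.2% to 58.9% of the set's counts. In tumors 1 and 2 of the time-matched mice, mouse 6 had 2.82% and 2.32%, mouse 12 had 0.122% and 0.134% and mouse 14 had 1.22% and 1.48%. Of the untreated time-separated mice, mouse 4 had 1.38% and 0.442%, mouse 17 had 2.79% and 0.339% and mouse 19 had 2.24% and 0.502%. The tumors of a time-matched mouse thus lay within 0.824-fold to 1.22-fold of each other, while in the untreated time-separated mice tumor 1 was 3.11-fold to 8.22-fold above tumor 2. At 0.5 mg/kg DAC, mouse 3 had 3.01% and 0.226%, mouse 11 had 1.67% and 0.134% and mouse 20 had 1.62% and 0.129%. At 2 mg/kg, mouse 7 had 1.67% and 1.71%, mouse 10 had 1.72% and 0.187% and mouse 16 had 0.667% and 0.151%. Tumor 1 was higher in 8 of the 9 time-separated mice, untreated and DAC together, mouse 7 being the exception (0.977-fold), with a median of 8.22-fold and a highest value of 13.3-fold (mouse 3). The 95% Clopper-Pearson intervals of tumors 1 and 2, which cover counting error only, were 2.88% to 3.14% and 0.188% to 0.268% in mouse 3 and 1.62% to 1.73% and 1.56% to 1.88% in mouse 7.

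**Figure D3:**
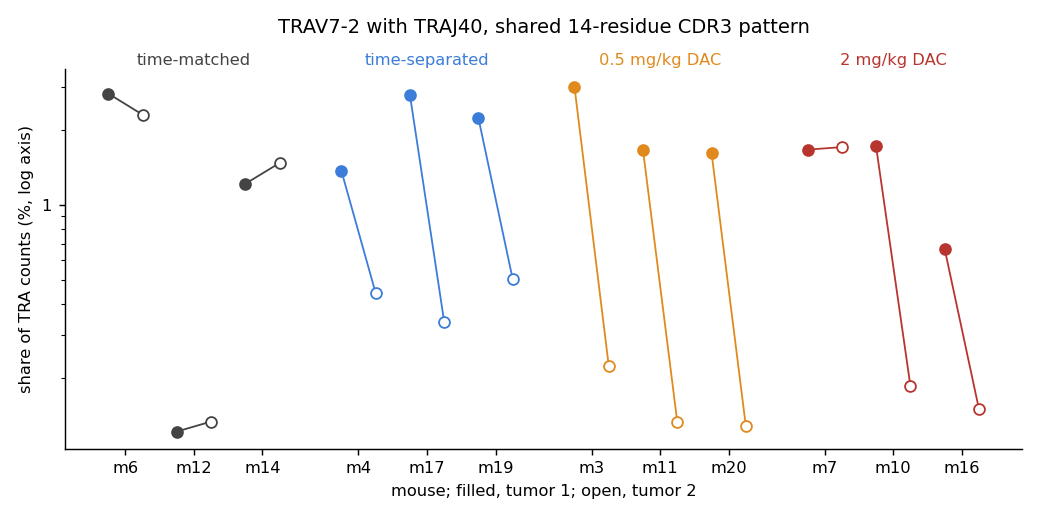
Share of TCRα counts (%, log axis) of the TRAV7-2 and TRAJ40 CDR3 set in tumor 1 (filled) and tumor 2 (open) of each mouse, joined by a line. The 3 time-matched pairs are nearly level, and 8 of 9 time-separated pairs lie lower in tumor 2, by up to 13.3-fold.

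Other values also differed between tumors 1 and 2, not always together with the set. At equal depth tumor 1 held more TCRα clonotypes than tumor 2 in 9 of 9 time-separated mice (median 1588 against 1048) and in 3 of 3 time-matched mice (1431 against 1329). The 10 largest TCRα clonotypes held a smaller share in tumor 1 in 9 of 9 (median 41.2% against 63.7%) and in 3 of 3 (59.5% against 62.2%). In mouse 7, where the set was level, tumors 1 and 2 had 1877 and 515 clonotypes at equal depth. The 10 largest held 48.1% and 60.7% in that mouse. Among time-matched mice the set itself was higher in tumor 1 in 1 of 3. TRAV7-2 counts outside the set were also higher in tumor 1 in 8 of 9 time-separated mice (median 1.13% against 0.383%) and in 2 of 3 time-matched mice (median 0.528% against 0.861%). The retained counts of the library were higher in tumor 1 in 7 of 9 and in 2 of 3. The part of these in the result was not tested. In edgeR's quasi-likelihood test over all segments with the mouse as a block, a comparison added after the values were seen, TRAV7-2 counts differed between tumor 2 and tumor 1 of the 9 time-separated mice by -1.22 on the log2 scale (adjusted p = 0.218), against a median of -0.53 over all 79 segments. None of 79 segments was called in this comparison (0%, 11 at an unadjusted p under 0.05), whereas DESeq2 called 10, TRAV7-2 the only TRAV7 member among them. With library totals alone edgeR called 2, TRAV7-2 again the only member (-1.96, adjusted p = 0.0199, against a median of -1.20). The time-matched mice gave -0.18 (adjusted p = 1), and the difference between the sets of mice was -1.04 (adjusted p = 1, 0% called in both, with 1 segment at an unadjusted p under 0.05 in each). For TRAV7-2 clonotypes the values were -0.57 in time-separated mice (adjusted p = 0.239) and 0.21 in time-matched mice (adjusted p = 0.996), with none of 50 segments called in either or in their difference (edgeR, with 6, 0 and 0 at an unadjusted p under 0.05; DESeq2 called 2, no TRAV7 member, in time-separated mice).

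None of the largest TRAV7 clonotypes of the 12 mice belonged to the TRAV7-2 and TRAJ40 set. The largest was a TRAV7-4 clonotype in 6 mice, TRAV7-3 in 3, TRAV7-1 in 2 and TRAV7-2 in 1, and held between 0.801% and 32.9% of counts (mean of the 2 tumors, median 5.53%). In 5 mice it was the largest of all TCRα clonotypes in at least 1 tumor. Mouse 12 carried the TRAV7-4 and TRAJ15 clone shown above at 30.6% of tumor 1 (95% Clopper-Pearson interval 30.5% to 30.7%) and 35.1% of tumor 2 (35.04% to 35.2%). The same nucleotides were listed in 7 other mice, with 28 counts in all and at most 9 in 1 mouse. Mouse 14 carried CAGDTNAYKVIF with TRAV7-3 and TRAJ30 at 21.9% and 18.3%, and mouse 7 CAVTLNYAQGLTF with TRAV7-3 and TRAJ26 at 15.4% and 15.5%. In these 3 mice the clone ranked first in both tumors and its share was nearly equal in them.

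In others the share differed between tumors. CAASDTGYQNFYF (TRAV7-4 and TRAJ49) held 14.7% of tumor 1 and 1.80% of tumor 2 of mouse 4. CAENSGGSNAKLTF (TRAV7-1 and TRAJ42) held 0.316% and 5.37% in mouse 16, and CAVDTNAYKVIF (TRAV7-1 and TRAJ30) 0.153% and 1.45% in mouse 10. In 6 of 12 mice the shares of the tumors differed more than 2-fold, and these were mice of the time-separated and DAC groups. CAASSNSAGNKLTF (TRAV7-2 and TRAJ17) was close in mouse 11, at 9.14% and 8.29%, as was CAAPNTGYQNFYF (TRAV7-4 and TRAJ49) in mouse 17, at 3.35% and 4.47%. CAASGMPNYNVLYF (TRAV7-4 and TRAJ21) held 3.15% and 1.78% in mouse 6. No largest clonotype was missing from a tumor of its mouse.

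**Figure D4:**
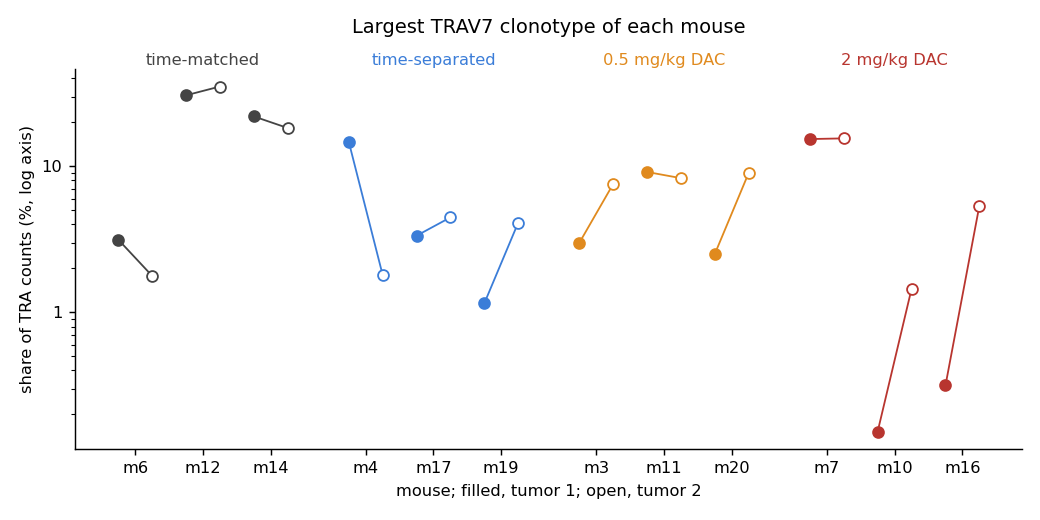
Share of TCRα counts (%, log axis) of the largest TRAV7 clonotype of each mouse in tumor 1 (filled) and tumor 2 (open). The highest pair is mouse 12 (30.6% and 35.1%), and the steepest lines are those of mice 16 (0.316% and 5.37%), 10 (0.153% and 1.45%) and 4 (14.7% and 1.80%).

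Some expanded clonotypes were shared between mice. The 15-residue TRAV7-4 and TRAJ12 clone was the largest of mouse 3 (2.99% and 7.56% of tumors 1 and 2) and of mouse 20 (2.52% and 9.05%), both of the 0.5 mg/kg group, with the same nucleotide sequence (6110 and 9889 counts), and was found in no other mouse. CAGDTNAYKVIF with TRAV7-3 was the largest of mice 14 and 19 (1.15% and 4.12%) and was found in 9 mice. It exceeded 1% of counts by mouse in 3 of them, mouse 17 (3.13% and 4.67%) using a different glycine codon. The same CDR3 with TRAV7-1 was found in 10 mice and reached 8.39% and 8.52% in mouse 12, again with another glycine codon, and with one or the other segment it was present in 12 of 12 mice. With TRAV7-1 it otherwise stayed at or below 0.710% per mouse. It was encoded by 33 nucleotide sequences with TRAV7-3 and by 26 with TRAV7-1, or by 4 and 5 with near-identical sequences joined. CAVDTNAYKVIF with TRAV7-1, the largest of mouse 10, was found in 10 mice and was larger in mouse 11 (7.27% and 5.88%), mouse 7 (3.49% and 2.58%) and mouse 20 (0.382% and 2.42%).

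Sharing between mice was wider among TRAV7 than among other clonotypes, which is given as a description. Of 6914 TRAV7 clonotypes 762 (11.0%) were found in at least 2 mice, and of 28538 others 2103 (7.37%). In at least 10 mice 12 TRAV7 and 8 other clonotypes were found. In a mouse, clonotypes that another mouse also had made up 28.3% ± 7.55 of its TRAV7 clonotypes and 16.6% ± 2.33 of its others, or 63.9% ± 12.8 and 42.05% ± 11.2 of the counts (n = 12). After joining, the share found in at least 2 mice was 10.4% of TRAV7 and 8.82% of other clonotypes, with 9 and 7 in at least 10 mice, and the share per mouse was 26.2% ± 4.30 and 19.4% ± 1.56. Sequences at a few counts, like those identical to the mouse 12 clone above, are included as shared clonotypes, and their origin was not tested.

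The design compares tumors harvested at one time with tumors harvested apart, and DAC with no treatment. Each value of a DAC mouse takes in both of its tumors, including the tumor removed before treatment. TRAV7 held 36.9% ± 17.6 of counts in time-matched mice and 17.0% ± 3.27 in time-separated mice (n = 3 and 3). The difference of 19.8 percentage points did not pass (p = 0.2 in a two-sided exact permutation test, which cannot go below 0.1 for 3 against 3 mice). Without the largest TRAV7 clonotype of each mouse it was 10.6 points (exact permutation p = 0.1), and without mouse 12 it was 11.4 points (exact permutation p = 0.2). Against all 9 time-separated mice, 21.4% ± 10.46, it was 15.5 points (exact permutation p = 0.0773, adjusted p = 0.15 over 12 group comparisons), and 6.77 points (exact permutation p = 0.209) without the largest TRAV7 clonotype of each mouse. These 9 include the DAC mice, so that harvest interval and treatment are mixed in each comparison with them. Mouse 6 (18.6%) lay within the range of the time-separated mice. Without it the latter difference was 24.6 points (exact permutation p = 0.0364), without mouse 7 it was 17.9 points (exact permutation p = 0.0364), and without mouse 12 it was 7.08 points (exact permutation p = 0.418). At 0.5 mg/kg DAC the share was 27.6% ± 3.05, above the 3 untreated time-separated mice in each mouse by a mean of 10.51 points (exact permutation p = 0.1, the smallest possible). With the counts of both tumors summed the difference was 9.18 points (exact permutation p = 0.2), and mouse 20 (22.6%) then lay below untreated mouse 4 (25.4%). At 2 mg/kg it was 19.5% ± 18.1, a difference of 2.41 points (exact permutation p = 1), and -7.98 points without mouse 7.

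By clonotypes at equal depth TRAV7 held 23.2% ± 5.27 in time-matched, 16.6% ± 1.03 in time-separated, 23.97% ± 3.34 in 0.5 mg/kg and 18.0% ± 6.75 in 2 mg/kg mice. The difference from the time-separated group was 6.68 points in time-matched and 7.41 points in 0.5 mg/kg mice, with no overlap of the mice in either (both exact permutation p = 0.1, the smallest possible, adjusted p = 0.15). Without mouse 12 the time-matched difference was 3.99 points. At 2 mg/kg it was 1.43 points (exact permutation p = 1), and -2.46 points without mouse 7. Against all 9 time-separated mice the time-matched difference was 3.74 points (exact permutation p = 0.286), 6.31 points without mouse 6 (exact permutation p = 0.164) and 1.05 points without mouse 12 (exact permutation p = 0.8). With near-identical sequences joined these differences were smaller, at 2.52 points for time-matched (exact permutation p = 0.2), 3.70 points for 0.5 mg/kg (exact permutation p = 0.1) and 0.861 points against all 9 (exact permutation p = 0.573).

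TRAV7-1 is given in full because it had the lowest adjusted p of the members in the time-matched comparison. Its share of counts was 3.04%, 9.31% and 1.96% in time-matched mice 6, 12 and 14 and 1.05%, 0.265% and 1.11% in time-separated mice 4, 17 and 19. At 0.5 mg/kg DAC it was 2.87%, 7.18% and 5.54% in mice 3, 11 and 20, and at 2 mg/kg 3.79%, 1.03% and 3.94% in mice 7, 10 and 16. The time-matched and the 0.5 mg/kg mice thus all lay above the untreated time-separated mice. Single clonotypes made up most of some of these shares. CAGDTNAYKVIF with TRAJ30 held 8.45% of counts in mouse 12 and 0.710% in untreated mouse 19. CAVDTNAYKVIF with TRAJ30 held 6.58% in mouse 11. The shares without these clonotypes were not compared. In edgeR's quasi-likelihood test over all segments the log2 fold change of TRAV7-1 counts was 5.43 in time-matched mice (adjusted p = 0.0885) against a median of -0.02 over 78 segments, after TMM normalization. The size of this value rests on the scaling. Mouse 12 had a TMM factor of 0.144, against 0.756 to 1.73 in the other 11 mice, and with library totals alone, an alternative added after the data were seen, edgeR gave 2.55 (adjusted p = 0.300) against a median of -0.89. The TRAV7-1 value in edgeR at 0.5 mg/kg was 2.94 with TMM (adjusted p = 0.327) and 2.63 with library totals alone (adjusted p = 0.324), and at 2 mg/kg it was 2.43 (adjusted p = 0.465) and 1.84 (adjusted p = 0.556). No TRAV7 member of 10 tested was called in the 3 comparisons, and none of the 78 segments was (0% called, with 10, 11 and 8 segments at an unadjusted p under 0.05). TRAV7-1 was called without time-matched mouse 6 and without mouse 14. DESeq2 called 1 segment, no TRAV7 member, for the time-matched mice and 0 in both others.

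For the other members the time-matched values on the log2 scale were 3.95 for TRAV7-4 (adjusted p = 0.367), 1.79 for TRAV7-3 (adjusted p = 0.463), 0.63 for TRAV7-5 (adjusted p = 0.759) and 0.26 for TRAV7-2 (adjusted p = 0.903) in edgeR with TMM. With library totals alone they were 1.02 for TRAV7-4, 1.13 for TRAV7-3, -0.35 for TRAV7-5 and -0.47 for TRAV7-2 (adjusted p of 0.680 and above), so that the last 2 changed sign. Mean shares of counts in time-matched and time-separated mice were 20.1% and 8.56% for TRAV7-4, 0.445% and 0.567% for TRAV7-5 and 2.03% and 2.67% for TRAV7-2. At 0.5 mg/kg TRAV7-5 gave 2.88 (adjusted p = 0.327), with mouse 3 at 6.84% of counts, mouse 11 at 1.97% and mouse 20 at 0.425%. The values of TRAV7-2, TRAV7-3 and TRAV7-4 ranged from 0.16 to 1.11 at that dose (-0.09 to 0.86 with library totals alone), and at 2 mg/kg those of these 3 and TRAV7-5 ranged from -0.68 to 1.27 with adjusted p of 0.633 and above (-1.03 to 1.14 with library totals alone). By clonotypes TRAV7-1 gave 1.84 in time-matched mice (adjusted p = 0.189), 1.40 at 0.5 mg/kg (adjusted p = 0.520) and 1.43 at 2 mg/kg (adjusted p = 0.433). None of 7 TRAV7 members and none of 50 segments was called in these (edgeR, 0% called, with 3, 4 and 4 segments at an unadjusted p under 0.05), and DESeq2 called 0 in each.

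The overlap of TRAV7 clonotypes between the tumors of a mouse was measured by the Morisita-Horn index, which is 1 for equal and 0 for disjoint repertoires. It was 0.903, 0.999 and 0.915 in time-matched mice 6, 12 and 14 and 0.670, 0.839 and 0.244 in time-separated mice 4, 17 and 19. At 0.5 mg/kg DAC it was 0.649, 0.896 and 0.691 in mice 3, 11 and 20, and at 2 mg/kg 0.963, 0.154 and 0.231 in mice 7, 10 and 16. The time-matched mice lay above all time-separated mice but mouse 7. Their mean was 0.939 ± 0.0524, against 0.584 ± 0.306 in untreated time-separated mice (exact permutation p = 0.1, the smallest possible, with a difference of 0.354, or 0.184 without mouse 19) and 0.593 ± 0.307 in all 9 (exact permutation p = 0.0727, and 0.0485 without mouse 7).

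The private share, meaning the percentage of TRAV7 counts whose clonotypes were missing from the opposite tumor, was 6.51% ± 5.78 in time-matched and 33.1% ± 18.5 in time-separated mice. The difference was -26.6 points (exact permutation p = 0.1, the smallest possible), and -16.3 points without mouse 19. Against all 9 time-separated mice (24.99% ± 14.3) it was -18.5 points (exact permutation p = 0.05, adjusted p = 0.15), with -20.7 points without mouse 7 (p = 0.0364), -19.9 without mouse 11 (p = 0.0485) and -14.9 without mouse 19 (p = 0.0424), all by exact permutation.

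**Figure D5:**
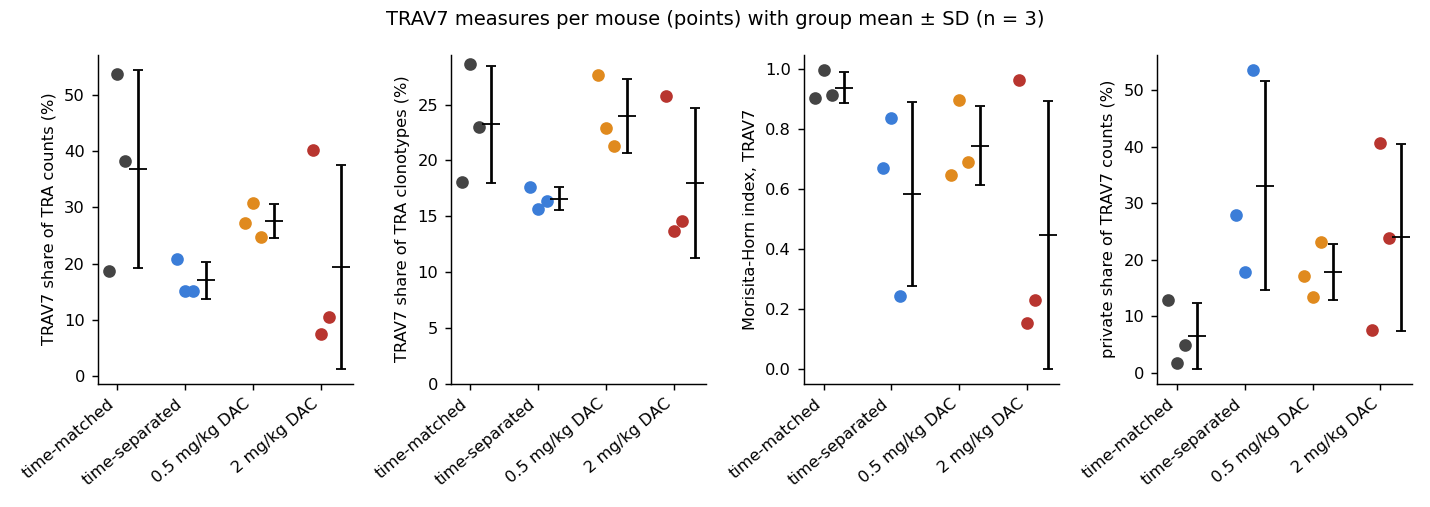
TRAV7 share of counts (%), TRAV7 share of clonotypes at equal depth (%), Morisita-Horn index and private share of TRAV7 counts (%) per mouse (points), with group mean ± SD (n = 3). Time-matched mice have indices of 0.903 to 0.999, and the 2 mg/kg mice split between mouse 7 (0.963) and mice 10 and 16 (0.154 and 0.231).

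TRAV7 and the other TCRα clonotypes did not overlap to the same degree in each mouse. In mice 10 and 16 the index was 0.154 and 0.231 for TRAV7 but 0.897 and 0.844 for the others, whereas in mouse 20 it was 0.691 against 0.249. Over 12 mice the mean was 0.679 ± 0.306 for TRAV7 and 0.691 ± 0.278 for the others, a difference of -0.01 (SD 0.345, exact sign-flip permutation test, p = 0.915), positive without mouse 10 (0.0547) or mouse 16 (0.0428). Counts per clonotype were compared as the log2 ratio of the family's share of counts to its share of clonotypes. The mean was 0.10 ± 0.53 over 12 mice (exact sign-flip permutation test, p = 0.511), from -0.96 in mouse 10 to 0.91 in mouse 12. With the largest TRAV7 clonotype of each mouse left out it was -0.31, but no clonotype of the others was left out, which lowers the ratio by construction, so no test is read from it.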

How the data were processed

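The deposited tables list, for each tumor, TCRα sequences with V and J segment, CDR3 and a count, which the authors produced with the Cogent NGS Immune Profiler (version 2.0) from libraries with unique molecular identifiers. The counts are not normalized, and the methods, which name an identifier-based analysis in that software, call them reads, as does the column name. TCRβ tables were not used here. Per the file headers the tables also hold the CDR3 length in residues, but no genome build.

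The TRAV7 segments, lists and tests were chosen with earlier results of these data known. Sequences with a stop mark or fewer than 2 counts were left out. For shares of clonotypes, counts per clonotype, the Morisita-Horn index and the private share, libraries were thinned to 26623 counts (20 draws, seed 20). Other values used all retained counts. Other TCRα clonotypes include a few of other V families (0.529% of counts). The mouse was the replicate. Each mouse has the mean of its 2 tumors, and TRAJ, length and segment values used both tumors joined. No batch is named in the sources used here, nor are an aligner or a genome build.

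Groups were compared by exact permutation tests and TRAV7 with other clonotypes by exact sign-flip tests. Segments were tested with edgeR's quasi-likelihood test (TMM, filterByExpr), adjusted over all TRAV segments. Alternatives were minimum counts of 1 and 5, CDR3 nucleotides, thinned or unthinned libraries, TRAV7D and TRAV7N copies joined to TRAV7, summed tumors, sequences with a stop mark kept, the largest clonotype left out, weighing by counts, DESeq2, no filter and each mouse left out. Joining of near-identical sequences, scaling to library totals without TMM and the comparison of tumor 2 with tumor 1 were added after the data were seen.

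Named were all segments above 1% of the family, the 5 commonest TRAJ partners and those called, the largest clonotype of each mouse, the 6 clonotypes in most mice and the 3 next families. The TRAV7-2 and TRAJ40 set and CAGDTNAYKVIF with TRAV7-1 were named after their values were seen. The tests were checked on simulated data. At the spread of the real tables edgeR recovered 0 of 10 segments changed 4-fold and 5 of 10 changed 64-fold in counts (time-matched against time-separated, 79 and 81 segments), and 8 and 10 of 10 in clonotypes (51 and 53 segments), with no false call. The versions were edgeR 4.0.16 and DESeq2 1.42.0 in R 4.3.3, and scipy 1.17.1, pandas 2.3.3, numpy 2.4.6 and matplotlib 3.10.9 in Python 3.11.15.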

Additional observations from a re-analysis of the deposited data

Results flagged for a closer look

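Among the values of the 6 tumors of each group and of the 9 time-separated mice, 40 groups of values were examined for a sample far from the rest, which chance gives in about 1 of 20 groups. TRAV7-4 held 23.8% of counts in tumor 1 of mouse 4 (time-separated), with the next tumor of its group at 8.53%. TRAV7-3 held 9.18% of counts in tumor 2 of mouse 20 (0.5 mg/kg DAC), with the next at 4.29%.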

How the results depend on the processing

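Of 364 alternative values of 26 results, 332 kept the direction and the side of the threshold (or a count within 1.5 times), and for those that did not the cause was not tested. With a minimum of 5 counts the difference in TRAV7 share between sequences with a stop mark and functional clonotypes was 1.04 points. Without the largest TRAV7 clonotype of each mouse the log2 ratio of count share to clonotype share was -0.31, lower by construction since no clonotype of the others was left out. Weighed by counts the difference in mean TRAJ number was -2.26, and with near-identical sequences joined the difference in CDR3 length was -0.11. Leaving out each mouse, the time-matched difference from all time-separated mice ranged from 7.08 to 24.6 points for the share of counts, from 0.29 to 0.39 for the Morisita-Horn index and from -21.7 to -14.9 points for the private share. The 2 mg/kg difference ranged from -7.98 to 8.38 points for counts and from -2.46 to 3.60 points for clonotypes. The difference between TRAV7 and other clonotypes ranged from -0.0531 to 0.0547 for the Morisita-Horn index, from -0.185 to -0.0936 residues for CDR3 length and from -0.569 to 0.219 points for the stop-marked share. Segments called by counts ranged from 0 to 2 for time-matched and for 2 mg/kg mice, and by clonotypes from 0 to 1 for 2 mg/kg mice and for tumor 2 against tumor 1. DESeq2 called 1 segment for time-matched mice by counts, and for tumor 2 against tumor 1 of time-separated mice 10 by counts and 2 by clonotypes, where no filter also gave 2. Scaled to library totals alone, edgeR called 2 segments by counts for tumor 2 against tumor 1. Comparisons of 3 with 3 mice cannot reach p under 0.1, and tumor 2 of mouse 7, the smallest library with 26623 counts, set the depth of all thinned values.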
